A study of Mus musculus with 18 samples.

Results

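The 44 collagen chain genes of the mouse were followed through kidney RNA-seq of 18 samples, 3 in each of 6 groups. They were the entries whose symbol is Col, a number, the letter a and a number, 44 of 19545 entries in the deposited table. All mice were of the ICR strain and aged 10 weeks. Control mice received no named agent, AOS mice received 10 mg/kg of an agent the labels call AOS without spelling it out, and STZ mice received STZ, which usually stands for streptozotocin, a toxin of insulin-producing cells. The STZ+AOS group received both, again with AOS at 10 mg/kg. Of the 2 remaining groups, both on STZ, STZ+AOS-FMT carries the AOS dose and STZ+control-FMT the word control in front of FMT, the usual abbreviation of faecal microbiota transplantation; the donors are not described further. The comparisons ask how the kidney responds to STZ and whether AOS or a transfer alters that response. The labels do not say whether each sample came from another mouse, and the p-values therefore weigh only how far these libraries scatter, some of which may be technical.

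Collagens are extracellular proteins built of chains that wind into a triple helix. Fibrillar collagens form the fibres of the interstitium, which accumulate in renal scarring. Type IV collagens form the sheet-like network of basement membranes, including the filter of the glomerulus. The remaining families line fibrils, form beaded filaments, sit next to basement membranes or span the cell membrane. Of the 44 genes, 11 were counted as fibrillar, 6 as basement membrane (type IV) and 27 as other. Values are FPKM, read counts scaled to transcript length and library size. In all, 25 genes reached 1 FPKM in at least 3 libraries and entered the tests: 7 of 11 fibrillar, 5 of 6 basement membrane and 13 of 27 others. The genes just inside that limit were Col5a2, Col20a1 and Col5a3, with a third-highest library at 1.2, 1.27 and 1.59 FPKM. The genes just outside were Col23a1, Col7a1 and Col13a1, at 0.95, 0.84 and 0.73 FPKM. The other 19 stayed under the limit, and 9 of the 44 were listed at 0 in at least 1 library.

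Of 3 pairs of type IV genes that lie head to head, the DNA between the starts is printed for the 2 whose genes were measured at close levels. The third pair, Col4a5 and Col4a6 on the X chromosome, has its starts 1308 bases apart and levels that are not close (means of 5.25 and 0.335 FPKM over the 18 libraries). Bases are from RefSeq promoter windows of GRCm38.p6, the patch of the mm10 build, with gene starts from GENCODE. On chromosome 1, Col4a4 (minus strand, chr1:82448423-82586849) and Col4a3 (plus strand, chr1:82586921-82722059) leave 71 bases between their starts, read here on the minus strand at chr1:82586850-82586920. On chromosome 8, Col4a1 (minus strand, chr8:11198423-11312826) and Col4a2 (plus strand, chr8:11312805-11449287) overlap at their starts by 22 bases, read on the plus strand at chr8:11312805-11312826. Capitals mark matches, on either strand, to 3 motifs: the CCAAT box (CCAAT), the GC box with the letters GGGCGG, and the TATA box with the letters TATAAA.
between Col4a4 and Col4a3: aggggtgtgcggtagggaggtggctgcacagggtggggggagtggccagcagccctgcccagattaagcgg
overlap of Col4a1 and Col4a2: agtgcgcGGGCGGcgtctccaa
The stretch before Col5a3 (minus strand, chr9:20770050-20815067) is shown because Col5a3 was the gene past the threshold in the most comparisons. The stretch before Col19a1 (minus strand, chr1:24261890-24587472) is shown because Col19a1 differed in the opposite direction. They are read on the minus strand, 250 bases at chr9:20815068-20815317 and 215 bases at chr1:24587473-24587687.
before Col5a3: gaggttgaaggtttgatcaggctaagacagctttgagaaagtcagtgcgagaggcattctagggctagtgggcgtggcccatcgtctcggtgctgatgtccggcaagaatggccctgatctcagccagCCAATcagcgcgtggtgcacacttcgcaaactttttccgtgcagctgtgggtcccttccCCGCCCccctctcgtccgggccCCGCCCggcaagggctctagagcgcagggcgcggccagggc
before Col19a1: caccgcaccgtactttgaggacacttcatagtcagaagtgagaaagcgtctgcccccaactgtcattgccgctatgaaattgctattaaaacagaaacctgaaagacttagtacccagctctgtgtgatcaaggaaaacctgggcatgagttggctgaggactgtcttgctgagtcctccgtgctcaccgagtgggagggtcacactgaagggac
The Col4a4 to Col4a3 and Col19a1 stretches hold none of the 3 motifs, while the Col5a3 stretch holds 1 CCAAT and 2 GC boxes. Of 35 collagen genes with a promoter window in that table, 19 were tested. These 19 genes have 21 windows of 300 bases, as Col6a2 and Col18a1 have 2 each. Of the 21 windows, 7 held CCAAT, 13 held the GC box and 1 held TATAAA. The shares over all 32851 windows were 37.4%, 35.7% and 13.6%. A match describes letters only and is not a binding site.

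Some libraries stood apart by genes other than collagens. Control 3 carried adrenal cortex transcripts (Cyp11b1 at 117.85 FPKM; it was listed at 0 in the other controls and in 8 of 18 libraries in all) and a low level of Kap, an abundant androgen-dependent transcript of the proximal tubule (15798 FPKM, against 145522 to 150876 in the other controls). STZ 1 had Kap at 144830 FPKM, against 14615 to 63552 in the other STZ libraries. By Kap, then, the library labelled control 3 lies with the STZ libraries and the library labelled STZ 1 with the unexposed ones. Whether these labels were exchanged cannot be told from the files, and every control and STZ value below carries that doubt. The STZ+AOS libraries also held adrenal transcripts, with Cyp11b1 at 316.12, 14.33 and 276 FPKM, and Kap at 6174 to 41198 FPKM. Markers of the kidney tubule were present in every library, with the 6 proximal tubule markers summing to at least 1955 FPKM. Transcripts of spermatids summed to 18.16 to 74.34 FPKM in the control and STZ libraries and to at most 0.18 FPKM elsewhere. Every comparison of AOS with control, and of STZ+AOS or a transfer group with STZ, crosses that split. In those comparisons the treatment and whatever made the split cannot be told apart. STZ against control, STZ+AOS against AOS and the transfers against each other do not cross it. Read totals are not given, which leaves the depth unknown and allows no interval for counting error. The labels name no batch.

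Basement membrane chains were the most abundant collagens. In every library Col4a1, Col4a2, Col4a3, Col4a4 and Col18a1 together made up 60.78% to 75.13% of the summed FPKM of the 44 genes. Type IV chains alone made up 53.48% to 65.42% and fibrillar chains 11.17% to 19.69%. The summed FPKM of the type IV chains was 237.3, 193.4 and 196.7 in the 3 STZ+AOS libraries and 122.3 to 156.1 in the other 15. The 2 ranges did not overlap. The fibrillar sum was 71, 64.25 and 33.59 in STZ+AOS and 23.82 to 56.17 elsewhere, so STZ+AOS 3 lay inside the range of the other groups. Of the 25 tested genes, 17 had their highest group mean in STZ+AOS and 15 their lowest in AOS. By single library, STZ+AOS 1 was highest for 14 of 25, STZ+AOS 2 for 5, and AOS 2 was lowest for 13. Over all genes, 73.6% were higher in STZ+AOS than in STZ and 76.9% higher than in AOS. In AOS, 26% of all genes were higher than in control. The shares of all genes with the same extremes are not given here, so these counts are no result about collagens in particular. In bulk tissue, a larger share of cells that make a transcript and more of that transcript per cell cannot be told apart.

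**Figure D1:**
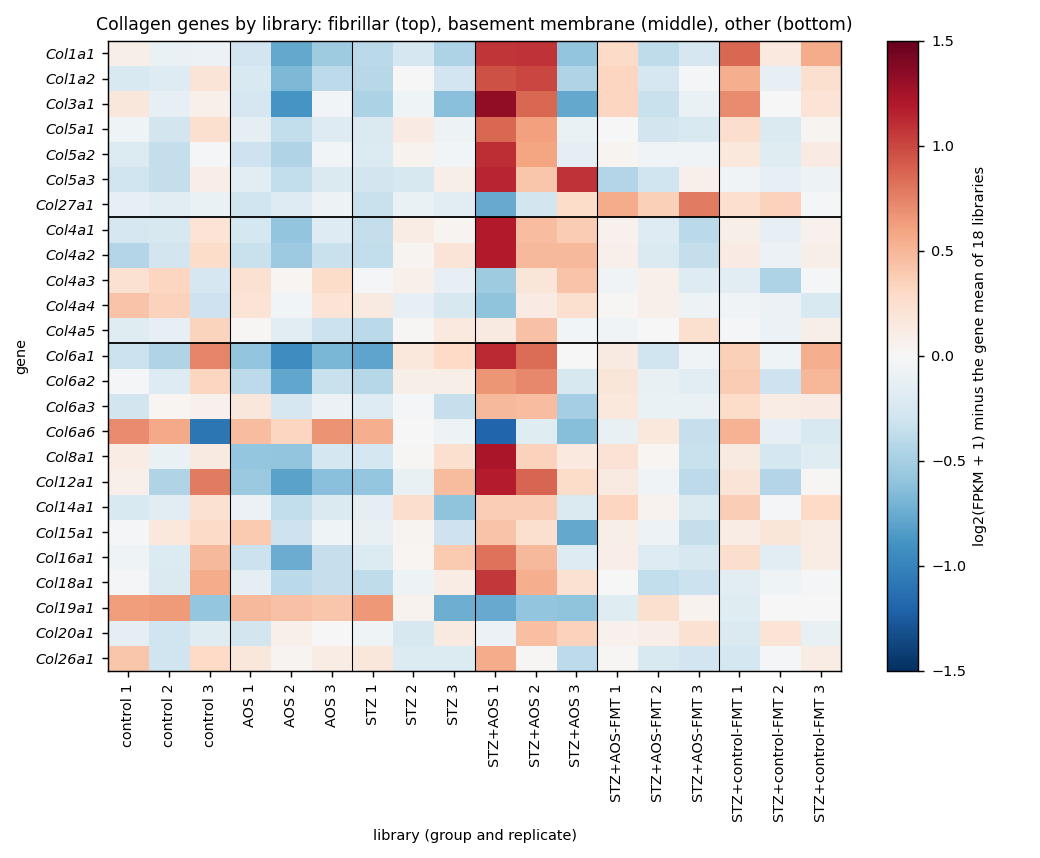
Each of the 25 tested collagen genes (rows, by type) in each of the 18 libraries (columns, by group), as log2(FPKM + 1) minus the gene's mean over the libraries; red is above and blue below that mean. Red fills STZ+AOS 1 for most fibrillar genes, Col4a1 and Col4a2, and STZ+AOS 3 is blue for Col1a1, Col1a2 and Col3a1 while red for Col5a3, Col4a1 and Col4a2.

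Differences between groups were tested with limma on log2(FPKM + 1), over 12682 genes, with Benjamini-Hochberg adjustment over all of them and a threshold of 0.05. Every difference below is on this log2 scale, which understates the change of genes near 1 FPKM, and is given with its standard error. The mean difference counts the first group minus the second.

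With both STZ and AOS, against STZ alone, 1 collagen gene rose. Col5a3 encodes the third chain of type V collagen, a minor fibrillar collagen that sits inside type I fibrils. It read 3.29, 1.59 and 3.12 FPKM in STZ+AOS and 0.6, 0.65 and 1.07 in STZ. In the other groups it read 0.58, 0.52 and 1.08 in control, 0.73, 0.51 and 0.67 in AOS, 0.43, 0.58 and 1.05 in STZ+AOS-FMT and 0.87, 0.78 and 0.85 in STZ+control-FMT. Every STZ+AOS library lay above every other library. The difference was 1.02 ± 0.20 with an adjusted p of 0.032. It was also the 1 member of 25 past the threshold when limma asked whether the 6 group means differed at all (adjusted p = 0.0464), a result that 0.647% of the 12682 genes reached. At an unadjusted p under 0.05 in that test stood 9 of 25 collagens and 31.1% of all genes. The share of all genes past the threshold in STZ+AOS against STZ was 4.53%, and 1 of 25 collagens is near that share. The Col5a3 call ended in 13 of 30 alternatives, in 7 of them through leaving out 1 library, which could be AOS 2, AOS 3, STZ 1, STZ 2, STZ+AOS 1, STZ+AOS 3 or STZ+control-FMT 2. Its difference ranged from 0.40 to 1.64, and without the 3 libraries above 100 FPKM of Cyp11b1 it was 0.56. That fit, counted among the 13, has STZ+AOS 2 as its only STZ+AOS library, so only its difference is given. With the libraries labelled control 3 and STZ 1 left out it was 0.95 with a limma adjusted p of 0.0794, and no collagen passed.

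Col4a1 and Col4a2, the chains of the type IV network found in nearly all basement membranes, showed the same separation without passing the threshold. Col4a1 read 108.6, 65.58 and 61.74 FPKM in STZ+AOS and 36.64, 51.04 and 48.76 in STZ. Col4a2 read 80.11, 48.72 and 48.81 in STZ+AOS and 26.51, 35.52 and 39.72 in STZ. For both genes the groups did not overlap, and the highest library of the other 4 groups (54.73 and 42.09 FPKM, both control 3) lay below the lowest of STZ+AOS. The differences were 0.74 ± 0.20 and 0.77 ± 0.21, each with a limma adjusted p of 0.0509. In the alternatives these genes passed in 6 of 31 and 7 of 31 settings.

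The chains of the other type IV network did not pass the threshold either. Col4a3 and Col4a4, with Col4a5, form the network of the mature glomerular basement membrane, which is defective in Alport syndrome. Col4a3 read 21.15, 35.45 and 41.99 FPKM in STZ+AOS and 30.39, 32.75 and 28.47 in STZ, a difference of 0.05 with a 95% interval from -0.39 to 0.49. Col4a4 read 21.15, 35.49 and 38.72 against 35.82, 29.88 and 27.52, a difference of -0.01 (0.43 upward and -0.44 downward as the 95% bounds). STZ+AOS 1, the library with the highest Col4a1, had the lowest Col4a3 and Col4a4 of all 18. Col4a5 read 5.81, 7.42 and 5.02 FPKM in STZ+AOS and 3.66, 5.26 and 5.84 in STZ, which overlap, with a difference of 0.26 (95% interval -0.10 to 0.63). Col4a6, the partner of Col4a5 in smooth muscle and capsule membranes, was not tested and stayed between 0.12 and 0.83 FPKM in all 18 libraries.

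Col18a1, a heparan sulfate collagen of the basement membrane zone and the source of endostatin, was the fifth most abundant collagen. It read 62.34, 43.53 and 34.64 FPKM in STZ+AOS and 22.29, 27.95 and 31.9 in STZ, without overlap. The difference of 0.73 ± 0.21 had a limma adjusted p of 0.0558. Outside these groups, control 3 reached 43.83 FPKM, above 2 of the STZ+AOS libraries. Its relative Col15a1 read 4.43, 3.78 and 1.36 FPKM in STZ+AOS against 2.72, 3.16 and 2.24 in STZ.

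The interstitial chains were high in 2 of the 3 STZ+AOS libraries. Col1a1 and Col1a2 are both chains of type I collagen, the main fibre of scar tissue. Col1a1 read 10.46, 10.52 and 2.62 FPKM in STZ+AOS and 3.12, 3.58 and 2.95 in STZ. Col1a2 read 20.22, 21.03 and 7.01 against 7.23, 10.01 and 8.01. Col3a1, the single chain of type III collagen, read 23.39, 16.7 and 4.72 against 6.02, 8.33 and 5.31. In each case STZ+AOS 3 was below every STZ library while the other STZ+AOS libraries were above them all. For Col1a1 the difference was 0.89 ± 0.34 (limma adjusted p = 0.098). Without STZ+AOS 3, the genes Col1a1, Col1a2, Col3a1, Col5a1 and Col5a2 passed the threshold and Col5a3 did not. The share of all genes past the threshold in that fit is not given here. Col5a1 and Col5a2, the common chains of type V collagen, read 3.15, 2.5 and 1.14 FPKM and 3.25, 1.99 and 0.79 FPKM in STZ+AOS.

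Among the 25 tested genes, 21 were higher in STZ+AOS than in STZ by any amount, against 73.6% of all genes. Their median difference was 0.47 and that of all genes 0.19. Under quantile normalization 16 of the 25 were higher and under median-of-ratios rescaling 18, with the median of all genes at -0.02 and -0.01 and that of the collagens at 0.18 and 0.27. The genes past the threshold split 436 higher (3.44% of all) and 139 lower (1.1%) as reported, 37 and 91 under quantile normalization, and 215 and 608 under rescaling. By type, 6 of 7 fibrillar, 4 of 5 basement membrane and 11 of 13 other genes were higher. At an unadjusted p under 0.05 stood 12 of 25, against 33.1% of all genes. Groups did not overlap for 4 genes higher in STZ+AOS (Col5a3, Col4a1, Col4a2 and Col18a1) and 1 lower (Col6a6), against 20.2% and 4.01% of all genes.

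**Figure D2:**
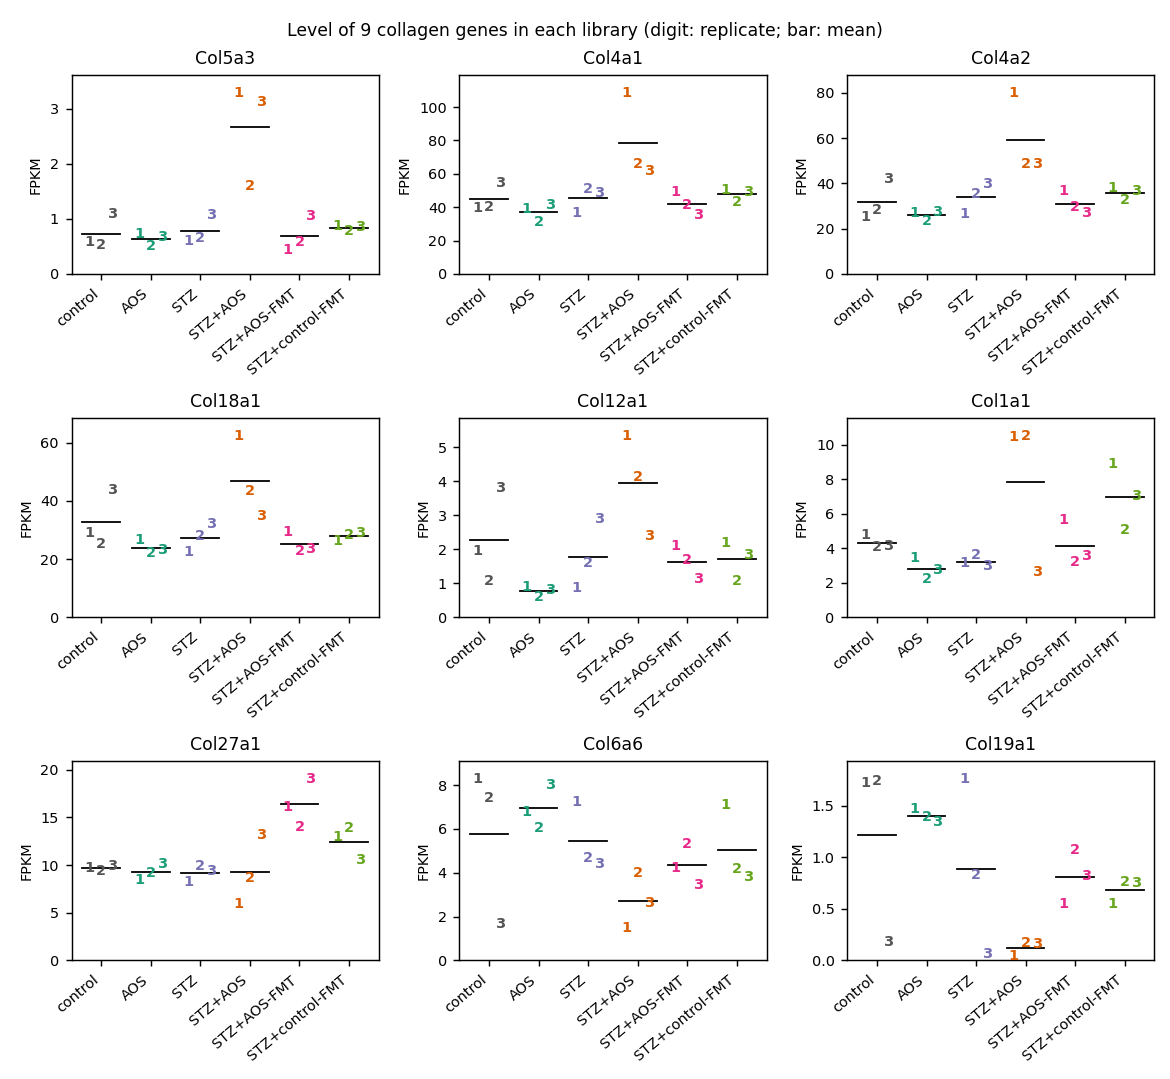
FPKM of 9 collagen genes in each library, by group; digits are replicate numbers and bars are group means of 3. Col5a3, Col4a1 and Col4a2 place all 3 STZ+AOS libraries on top, Col1a1 places 2 of 3 there, Col27a1 is highest in STZ+AOS-FMT and Col19a1 lowest in STZ+AOS.

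Col6a6 and Col19a1 pointed the other way. Col6a6 is an alternative chain of the beaded-filament collagen VI, and Col19a1 is a fibril-associated collagen of basement membrane zones. Col6a6 read 1.49, 4 and 2.64 FPKM in STZ+AOS and 7.25, 4.67 and 4.39 in STZ. Col19a1 read 0.04, 0.17 and 0.16 against 1.76, 0.83 and 0.06. Control 3 was also low for both, at 1.68 and 0.18 FPKM, beside 7.42 to 8.28 and 1.72 to 1.74 in the other controls. The differences were -0.83 ± 0.39 and -0.64 ± 0.32, with limma adjusted p of 0.153 and 0.169. Both turned positive, to 0.33 and 0.15, once Cyp11b1 entered the fit. Outside STZ+AOS and control 3, Cyp11b1 read at most 5.13 FPKM. In such a fit its part and that of the STZ+AOS group cannot be told apart.

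Markers of several cell types moved with these values. The 6 endothelial markers (all 6 in the table, as for the next lists) summed to 233.2 to 339 FPKM in STZ+AOS, 123.7 to 186 in STZ and 111.2 to 143.3 in AOS. The 6 fibroblast markers summed to 114.3 to 152.8, 50.13 to 127.7 and 42.23 to 65.94 FPKM in the same order. The 6 podocyte markers summed to 107.7 to 125.7, 38.25 to 100.1 and 45.6 to 54.71. The 6 markers of pericytes and smooth muscle summed to 84.95 to 140.6, 34.76 to 102.6 and 29.45 to 44.26. Against AOS all 6 rose past the threshold, as did all 6 endothelial and all 6 podocyte markers and 5 of 6 fibroblast markers. Over all genes 39.3% rose past the threshold in that comparison, which is the background for each such count here. The 3 markers of injured tubule summed to 1204, 99.56 and 38.03 FPKM in STZ+AOS 1, 2 and 3, 5.36 to 52.3 in STZ and 6.68 to 8.63 in AOS, and STZ+AOS 1 is the library highest for 14 of 25 collagens. The 5 urothelium markers summed to 17.04 to 129.4, 1.54 to 82.45 and 0.98 to 5.42, and 4 of 5 rose against AOS. The sum of the 6 proximal tubule markers ran in the other direction, at 1955 to 2801, 2886 to 4511 and 3983 to 4276 FPKM. Slc34a1 made up most of that sum, and Cubn overlapped between STZ+AOS and AOS. Against STZ 0 of the 6 were higher and 2 passed the threshold as lower, where 1.1% of all genes did. The 7 adrenal cortex markers summed to 1769, 83.09 and 1409 FPKM in STZ+AOS, at most 35.72 in STZ and at most 1.86 in AOS. The part of these cell types in the collagen values was not tested. STZ+AOS 2, with the least adrenal RNA of its group but more than any STZ library, had the lowest Col5a3 of the group (1.59 FPKM) and the highest Col1a1 (10.52 FPKM). Col4a1 (61.74 FPKM) and Col18a1 (34.64 FPKM) were lowest in STZ+AOS 3 instead. These ranks are a description of single libraries and were not tested.

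**Figure D3:**
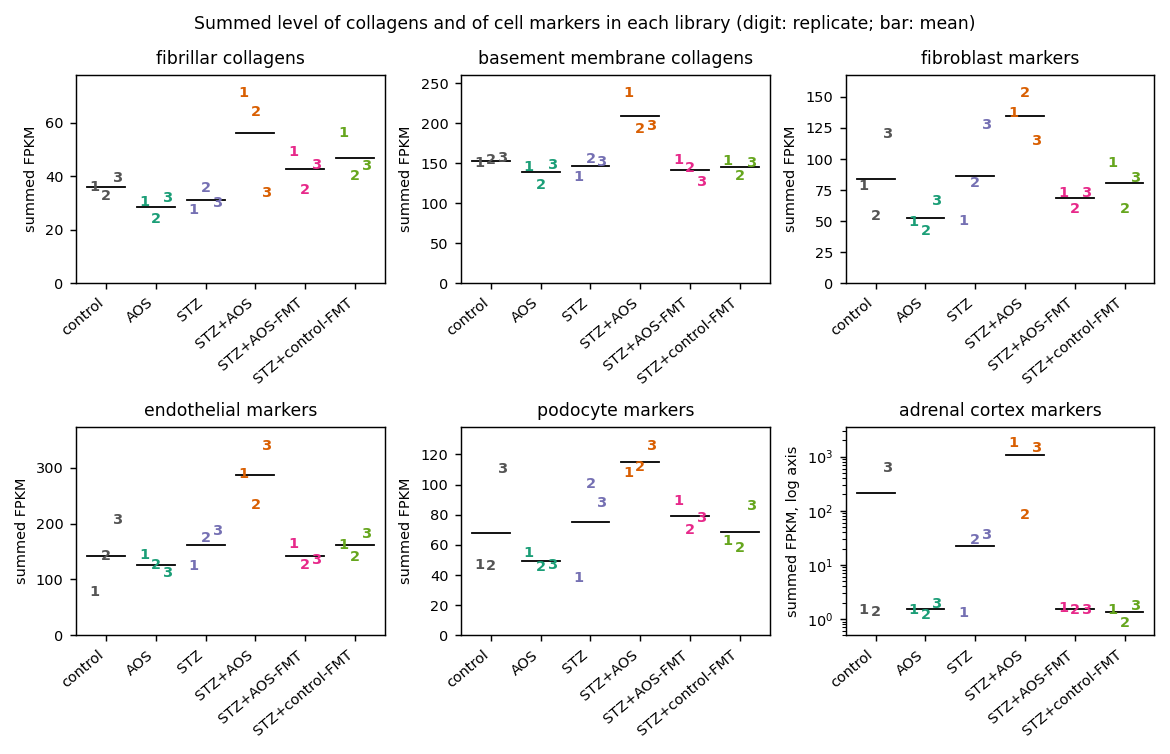
Summed FPKM of fibrillar and basement membrane collagens and of 4 marker lists in each library (digits are replicate numbers, bars are group means; the adrenal panel has a log axis). All 3 STZ+AOS libraries lie above the others for basement membrane collagens and endothelial markers, while fibrillar collagens are high in 2 of them and adrenal markers span 83.09 to 1769 FPKM.

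Against AOS alone, the group given both STZ and AOS had 13 collagen genes higher and 2 lower past the threshold. Over all genes 46.5% passed, 39.3% higher and 7.18% lower, so this contrast moved a large part of the transcriptome. The share of collagens called higher, 13 of 25, is to be read against that 39.3%. The median collagen difference was 0.79 and that of all genes 0.29. At an unadjusted p under 0.05 stood 16 of 25, against 56.6% of all genes, and 18 of 25 were higher by any amount, against 76.9%. Groups did not overlap for 10 collagens higher and 2 lower, against 49.7% and 9.75% of all genes. By type, 5 of 7 fibrillar genes, 2 of 5 basement membrane genes and 6 of 13 others rose, and 2 others fell. Scaling affected the split: all genes divided 4985 higher and 910 lower as reported, 1407 and 1951 under quantile normalization, and 1682 and 2499 under median-of-ratios rescaling. The collagens divided 6 and 2, and 9 and 2, under those settings, with medians of 0.33 and 0.55. This comparison shares the STZ+AOS libraries with the one above, so the 2 are not independent.

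Of the fibrillar class, 5 chains rose. Col5a3 rose by 1.13 ± 0.20 (limma adjusted p = 0.0059). Col1a1 read 3.44, 2.2 and 2.75 FPKM in AOS and rose by 1.06 ± 0.34 in STZ+AOS (adjusted p = 0.024). Col1a2 read 8.4, 5.88 and 7.35 FPKM in AOS and rose by 0.93 ± 0.31 (adjusted p = 0.0263). For both, STZ+AOS 3 lay within the AOS range, and leaving out AOS 2, AOS 3, STZ+AOS 1 or STZ+AOS 2 ended the call. Both calls also ended under quantile normalization, under median-of-ratios rescaling and in a fit of only the groups compared. Col5a1 (1.08, 0.77 and 1 FPKM in AOS) rose by 0.69 ± 0.21 and Col5a2 (0.59, 0.45 and 0.92 FPKM) by 0.79 ± 0.23, with adjusted p of 0.0197 and 0.0164. Leaving out AOS 2 or STZ+AOS 1 ended both calls, and leaving out STZ+AOS 2 that of Col5a1. Quantile normalization ended both as well. The Col5a1 call also ended under median-of-ratios rescaling and in the fit of only the groups compared. Col3a1, at 7.15, 4.28 and 8.43 FPKM in AOS, differed by 0.87 ± 0.40 with an adjusted p of 0.0851 and did not pass. Col27a1, a fibrillar collagen best known from cartilage, read 5.91, 8.67 and 13.16 FPKM in STZ+AOS and 8.45, 9.18 and 10.09 in AOS.

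Both chains of the common type IV network rose. Col4a1 read 39.07, 31.08 and 41.04 FPKM in AOS and rose by 1.03 ± 0.20 (limma adjusted p = 0.00616). Col4a2 read 27.13, 23.42 and 27.23 FPKM in AOS and rose by 1.12 ± 0.21 (adjusted p = 0.0059). No library overlapped for either gene. Both calls held in 30 of 31 alternatives, the exception being the fit with Cyp11b1 as a covariate, which left 0 of all genes past the threshold. Col4a3 read 36.65, 31.61 and 37.82 FPKM in AOS and differed by -0.15 (95% interval -0.59 to 0.29). Col4a4 read 37.65, 31.55 and 37.66 FPKM and differed by -0.20 (interval -0.64 to 0.24). For the 2 glomerular chains, then, the AOS range lay inside the STZ+AOS range.

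Of the remaining families, the collagen VI and FACIT genes included the largest differences among the 25 collagens. Col12a1, a fibril-associated (FACIT) collagen of tissue under tension, read 5.33, 4.11 and 2.38 FPKM in STZ+AOS and 0.9, 0.6 and 0.81 in AOS, and rose by 1.44 ± 0.32 (limma adjusted p = 0.00726). Col6a1, a core chain of collagen VI, read 14.04, 11.4 and 5.95 against 3.59, 2.63 and 3.32, and rose by 1.39 ± 0.35 (adjusted p = 0.00915). For both genes every STZ+AOS library lay above every AOS library. Its partner Col6a2 read 6.87, 7.19 and 3.21 against 2.77, 1.9 and 2.94, and rose by 0.89 ± 0.27 (adjusted p = 0.0175). Col8a1, a network collagen of vessel walls, read 5.04, 2.28 and 1.87 against 0.74, 0.72 and 1.16, and rose by 1.05 ± 0.24 (adjusted p = 0.0075). Col18a1 read 26.68, 21.98 and 22.96 FPKM in AOS and rose by 0.91 ± 0.21 (adjusted p = 0.00779). These 3 genes also separated the groups without overlap. Col16a1, another FACIT collagen, read 3.94, 2.93 and 1.46 against 1.25, 0.67 and 1.21, and rose by 0.84 ± 0.25 (adjusted p = 0.0168). Col6a2 and Col16a1 lost the call without AOS 2 or without STZ+AOS 1, and Col6a2 also without STZ+AOS 2. Under quantile normalization Col6a2, Col8a1 and Col16a1 lost it, and Col6a2 lost it under median-of-ratios rescaling too.

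The 2 genes that fell were those noted above. Col19a1 read 1.47, 1.39 and 1.34 FPKM in AOS and fell by 1.10 ± 0.32 (limma adjusted p = 0.0151). Col6a6 read 6.78, 6.06 and 8.03 FPKM in AOS and fell by 1.15 ± 0.39 (adjusted p = 0.0275). Neither gene had an STZ+AOS library inside the AOS range. The Col6a6 call ended without AOS 1, AOS 2, AOS 3 or STZ+AOS 1. Adjusting for Cyp11b1 turned the Col6a6 difference to 0.37, in a fit where Cyp11b1 and the STZ+AOS group cannot be told apart.

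When the 3 libraries with more than 100 FPKM of Cyp11b1 were left out, each of these 15 genes kept the direction of its difference. The genes had been picked in the full fit, which shares STZ+AOS 2 and the AOS libraries. The fit without those libraries has STZ+AOS 2 as its only STZ+AOS library and assumes that it varies like the other groups. Only differences are therefore given. Col4a1 and Col4a2 then differed by 0.82 and 0.89, and Col1a1 by 1.61. The difference was 0.67 for Col5a3, 0.82 for Col8a1, 0.96 for Col16a1, -1.04 for Col19a1 and -0.66 for Col6a6.

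**Figure D4:**
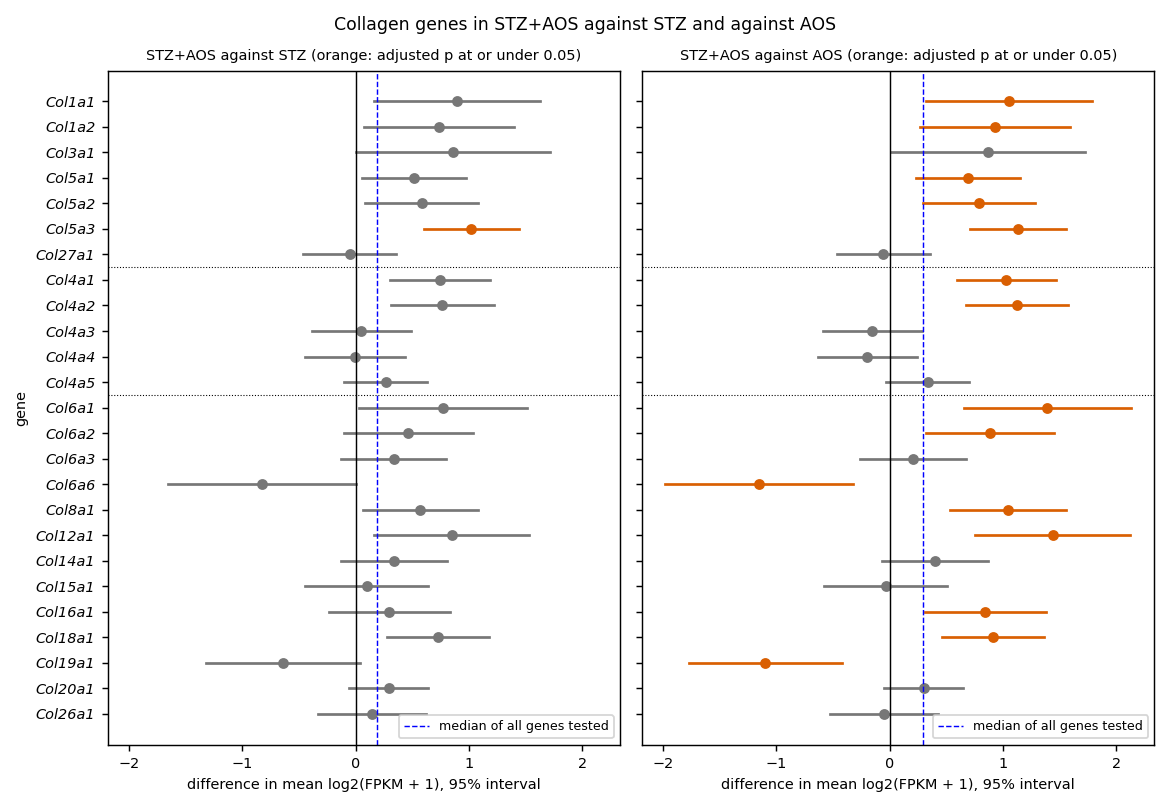
Difference in mean log2(FPKM + 1) with its 95% interval for the 25 tested collagen genes, STZ+AOS against STZ (left) and against AOS (right); orange marks genes past the threshold and the dashed line the median of all genes (0.19 and 0.29). On the left 1 gene is orange, on the right 15, and the intervals of Col4a3 and Col4a4 include 0 in both panels.

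The other members were not past a threshold in any comparison. Col14a1, a FACIT collagen and the most abundant of the other class after Col18a1, read 12.75, 12.76 and 8.2 FPKM in STZ+AOS, 8.67, 11.75 and 6.02 in STZ and 8.99, 7.25 and 8.17 in AOS. It lay between 8.1 and 12.81 FPKM in the control and both FMT groups. Col6a3, the long chain of collagen VI, ranged from 0.84 to 2.66 FPKM over the 18 libraries with both extremes in STZ+AOS. Col20a1 ranged from 0.58 to 1.65 FPKM and Col26a1 from 0.87 to 2.6 FPKM. Col15a1 ranged from 1.36 to 4.43 FPKM, again with both extremes in STZ+AOS.

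STZ alone, against control, brought no collagen past the threshold. Of all genes 0% passed limma's threshold in STZ against control, and 0 of 25 collagens did. At an unadjusted p under 0.05 stood 0 collagens and 1.27% of all genes. Col1a1 was the 1 member whose groups did not overlap, lower in STZ as 2.08% of all genes were, at 4.78, 4.06 and 4.12 FPKM in control and 3.12, 3.58 and 2.95 in STZ. By type, the smallest p belonged to Col3a1 (-0.43 ± 0.40), Col4a4 (-0.23 ± 0.20) and Col15a1 (-0.27 ± 0.25), each with an adjusted p of 1. Of the 25 genes, 7 were higher in STZ, against 51.3% of all genes, with a median of -0.11 against 0.00 for all genes. When control 3 and STZ 1 were left out, Col19a1 passed as lower, so this comparison depends on the libraries that stood apart. Its remaining values were 1.72 and 1.74 FPKM in control and 0.83 and 0.06 in STZ. The share of all genes past the threshold in that fit is not given here, so this call is no result about collagens in particular.

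AOS alone gave 0 collagens past the threshold against control, where 0.071% of all genes passed. The smallest p of each type belonged to Col12a1 (-0.80 ± 0.32), Col1a1 (-0.50 ± 0.34) and Col4a1 (-0.26 ± 0.20), all with a limma adjusted p of 0.817. At an unadjusted p under 0.05 stood 3 of 25 collagens and 4.11% of all genes. Groups did not overlap for 6 collagens lower in AOS, against 10.2% of all genes. Of 25 genes, 5 were higher in AOS (11 under quantile normalization and 8 under rescaling), and 26% of all genes were.

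The interaction asks whether the effect of AOS differed with and without STZ. None of the 25 collagens and 0% of all genes passed limma's threshold, while 14 of 25 and 33.4% had an unadjusted p under 0.05. The smallest p of each type belonged to Col5a3 (1.09 ± 0.28), Col4a1 (1.00 ± 0.29) and Col18a1 (1.13 ± 0.30), all with an adjusted p of 0.0771. Of 25 genes 22 had a positive interaction (15 under quantile normalization and 17 under median-of-ratios rescaling), against 76.4% of all genes. Leaving out STZ 3 brought 8 collagens past the threshold and leaving out STZ+AOS 2 brought 3. The share of all genes past the threshold in those fits is not given here, so these counts are no result about collagens in particular.

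In the transfer groups the leading collagen was Col27a1. It read 16.14, 13.95 and 19.02 FPKM in STZ+AOS-FMT, 12.91, 13.87 and 10.55 in STZ+control-FMT, 8.26, 9.91 and 9.41 in STZ, and 9.73, 9.37 and 9.92 in control. All 3 STZ+AOS-FMT libraries were above every library of every other group, and all STZ+control-FMT libraries were above every STZ and control library. Against STZ the difference for STZ+AOS-FMT was 0.76 ± 0.19, with an unadjusted limma p of 0.00128 and an adjusted p of 0.453, so it did not pass. In that comparison 0 of 25 collagens and 0.11% of all genes passed. Col27a1 was the 1 collagen at an unadjusted p under 0.05 (3.78% of all genes) and the 1 whose groups did not overlap (5.5% of all genes were higher without overlap). Of 25 collagens 14 were higher, against 53.2% of all genes. Col27a1 passed when the libraries above 100 FPKM of Cyp11b1 (control 3, STZ+AOS 1 and STZ+AOS 3) were left out. None of these belongs to either group compared, so the difference itself did not change. Col4a5 (0.14 ± 0.17) and Col20a1 (0.19 ± 0.16) had the smallest p of their types, both with an adjusted p of 1. The level of Col5a3 was not past the threshold (-0.08, interval -0.50 to 0.34), nor was that of Col4a1 (-0.11, interval -0.55 to 0.33).

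STZ+control-FMT against STZ likewise had 0 of 25 collagens past the threshold, where 0.103% of all genes passed. Col1a1 read 8.86, 5.04 and 7.01 FPKM in STZ+control-FMT, above all STZ libraries. The difference was 0.89 ± 0.34, with an unadjusted limma p of 0.0203 and an adjusted p of 1. Groups did not overlap for 5 collagens, all higher (Col1a1, Col3a1, Col27a1, Col15a1 and Col6a3), against 4.19% of all genes. The last 4 were named after their values were seen. At an unadjusted p under 0.05 stood 1 collagen and 2.22% of all genes. Of 25 collagens 18 were higher (15 under quantile normalization), against 56.3% of all genes. The smallest p in the other types belonged to Col4a3 (-0.19 ± 0.20) and Col14a1 (0.38 ± 0.22), with an adjusted p of 1. Both transfer comparisons use the same STZ libraries.

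Set directly against each other, the transfers differed in 0 of 25 collagens and 0% of all genes by limma, with 0 collagens and 1.65% of all genes at an unadjusted p under 0.05. Col27a1 was higher in STZ+AOS-FMT by 0.37 ± 0.19, Col4a2 lower (-0.20 ± 0.21) and Col20a1 higher (0.17 ± 0.16), each with an adjusted p of 1. These had the smallest p of their types. Col27a1, higher, and Col15a1, lower, were the collagens without overlap, against 6.39% and 4.85% of all genes. Of 25 collagens 7 were higher, against 47.9% of all genes. The interval for Col27a1 ran from -0.04 to 0.78 and that for Col1a1 from -1.37 to 0.10.

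Ratios between chains were compared within and across networks, the cross-network pair being chosen after its values were seen. The ratio of Col4a1 to Col4a2 FPKM stayed between 1.23 and 1.57 over the 18 libraries, with a median of 1.35. Col4a3 over Col4a4 stayed between 0.725 and 1.11, with a median of 0.98. Across the 2 networks, Col4a1 over Col4a3 ran from 0.983 in AOS 2 to 5.13 in STZ+AOS 1. The highest value was 1.28 times the lowest for the first pair, 1.53 times for the second and 5.22 times across networks. Without STZ+AOS 1 the highest cross-network ratio was that of control 3, at 2.12. Col1a1 over Col1a2 ran from 0.358 to 0.59 and was 0.576 ± 0.0191 (SD, n = 3) in STZ+control-FMT and 0.386 ± 0.0401 in STZ. Col6a1 over Col6a2 ran from 1.11 in STZ 1 to 2.04 in STZ+AOS 1. These ratios are a description and were not tested. At the Col4a1 and Col4a2 starts, 22 exonic bases are shared, 0.295% of the Col4a1 exon length, and Col4a3 shares 5.65% of its exon bases with an overlapping gene. Whether counting used strand is not given in the sources used here.

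**Figure D5:**
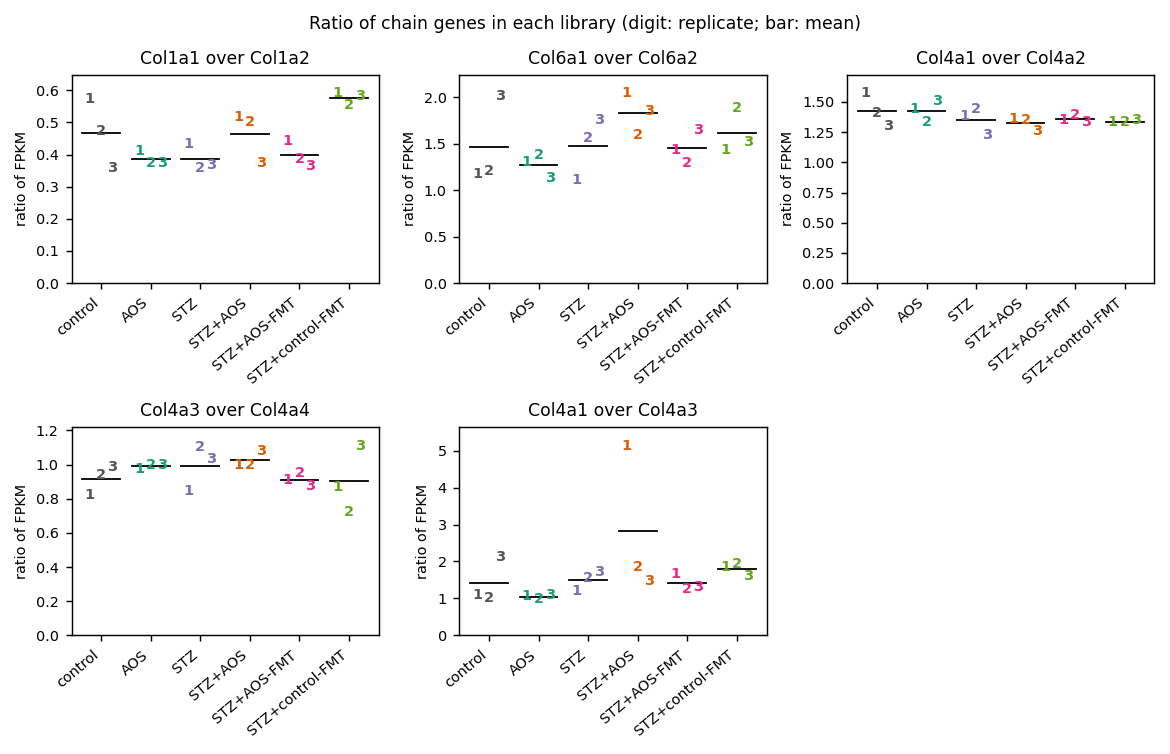
Ratio of FPKM between 5 pairs of chain genes in each library, by group (digits are replicate numbers, bars are group means). The 4 pairs within a collagen type or network span at most 0.358 to 0.59, 1.23 to 1.57, 0.725 to 1.11 and 1.11 to 2.04, and Col4a1 over Col4a3, from different networks, reaches 5.13 in STZ+AOS 1.

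The genes that process, degrade or bind collagen, or share its matrix, were taken from 7 lists of the pathway. In STZ+AOS against STZ, 2 of 72 tested genes passed the threshold (2.78%), below the 4.53% of all genes. Plod3, a lysyl hydroxylase and glycosyltransferase of collagen, read 25.11, 16.05 and 16.86 FPKM in STZ+AOS and 13.15, 13.25 and 11.09 in STZ, and rose by 0.57 ± 0.13 (limma adjusted p = 0.0408). Lox, the lysyl oxidase that cross-links fibres, read 6.66, 3.16 and 10.13 against 0.5, 1.48 and 3.41, and rose by 1.48 ± 0.38 (adjusted p = 0.0478). The Plod3 groups did not overlap, whereas STZ 3 lay above STZ+AOS 2 for Lox. The Plod3 call ended in 19 of 31 alternatives and the Lox call in 22 of 30, including 12 and 15 of the 18 that leave out 1 library. None of the tested members of these lists passed in STZ or AOS against control, in the transfer comparisons or in the interaction.

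Against AOS, 44 of the 72 rose and 2 fell, and the 39.3% of all genes called higher and 7.18% lower are again the background. In folding and modification 7 of 17 tested genes rose and 1 fell: Plod3 rose by 0.64, P4ha2 (a prolyl hydroxylase subunit) by 0.58 and Fkbp10 (a collagen chaperone) by 1.08, while P4hb, the other prolyl hydroxylase subunit, fell by 0.42. Of 8 tested genes for propeptide removal and cross-linking 6 rose, among them Lox (2.05), Loxl1 (1.13), Bmp1 (1.13) and Loxl2 (1.00). In breakdown and uptake 5 of 9 rose and 1 fell, with Timp2, an inhibitor of matrix proteases, higher by 1.09, the membrane protease Mmp14 by 1.38 the inhibitor Timp1 by 3.02 and the collagen-degrading protease Ctsk by 0.61. Timp1 read 72.33, 4.91 and 1.92 FPKM in STZ+AOS and 0.19, 0.22 and 0.65 in AOS, so its mean rests mostly on STZ+AOS 1. Timp3, the gene that fell, did so by 0.62 and was named after its value was seen. Its call ended on leaving out any single AOS or STZ+AOS library, and that of Ctsk on leaving out AOS 2, AOS 3, STZ+AOS 1 or STZ+AOS 2. The calls of Fkbp10 (also without AOS 3) and P4hb ended without STZ+AOS 1, and those of Plod3, P4ha2 and Ctsk under both other scalings.

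Of 15 tested partners in the basement membrane, 9 rose, among them the laminin chains Lamb2 (1.13), Lamc1 (0.79) and Lama5 (1.00) and the laminin linker Nid1 (0.97). Lamb2 read 12.61, 12.8 and 15.26 FPKM in STZ+AOS and 6.02, 5.45 and 5.42 in AOS, without overlap, and STZ 3 and control 3 were at 11.23 and 12.47. Of 11 interstitial partners 7 rose, with Dcn, a proteoglycan that coats fibrils, higher by 1.42, the related Lum by 1.22, elastin (Eln) by 1.03 and the collagen-binding Sparc by 1.39. Dcn and Lum are also among the fibroblast markers. Collagen receptors rose in 3 of 4 (Ddr1 by 0.52, Ddr2 by 0.53, Itgb1 by 0.41). All 3 receptor calls ended under median-of-ratios rescaling and without STZ+AOS 1, those of Ddr1 and Itgb1 also without AOS 3, those of Ddr2 and Itgb1 without AOS 2, and that of Ddr2 without STZ+AOS 2. Of 8 tested genes of the TGF-beta pathway, the best-known inducer of collagen transcription, 7 rose, including the receptors Tgfbr1 (0.57) and Tgfbr2 (0.48) and the ligands Tgfb1 (1.02) and Tgfb3 (0.76). The Tgfbr2 call ended under both other scalings and without STZ+AOS 1. The limma adjusted p of the companion genes named in this comparison ran from 0.0059 for Lox to 0.0393 for Timp3. With the 3 libraries above 100 FPKM of Cyp11b1 left out, STZ+AOS 2 was the only STZ+AOS library, so only differences are given. Sparc then differed by 1.37, Lum by 1.86, Dcn by 1.54, Timp2 by 1.15, Lamb2 by 1.06 and Nid1 by 0.99. Of these, Sparc and Lamb2 were below the full fit and Lum, Dcn, Timp2 and Nid1 above it. Also below it were Timp1 (2.14), Lox (1.28), Loxl2 (0.74), Plod3 (0.42), Ddr1 (0.32) and P4ha2 (0.29). So were Fkbp10, Bmp1, Mmp14, Loxl1, Lamc1, Itgb1, Tgfb1, Tgfbr1 and Tgfbr2, while Lama5, Ctsk, Ddr2, Eln and Tgfb3 were above it.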

How the data were processed

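Kidney RNA-seq of 18 samples (6 groups of 3, grouped by the treatment label) was deposited by the authors as 1 table of FPKM values. The unit is inferred from the values: sums of value times gene length varied by 0.919% (coefficient of variation) between libraries and plain sums by 5.561%. Bowtie 0.12.2 and mm10 are named per the submitters' processing notes; how reads were counted, with what annotation and strand setting, is not given in the sources used here.

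A total of 12682 genes reached 1 FPKM in 3 or more libraries and were put on log2(FPKM + 1). A limma 3.58.1 model under R 4.3.3 estimated the 6 group means from all libraries, with trend and robust options and Benjamini-Hochberg adjustment at 0.05. Exact permutation was not used, as 0.1 is the smallest p that 3 libraries against 3 allow. The fit was tested on simulated data. No 2 libraries held identical values.

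All collagens past the threshold are named in each comparison, or else the smallest p of each type, with at most 4 called genes of each pathway list. The members and lists were chosen with earlier results of these data known. Alternatives changed the scaling, filter, pseudocount (0.1 or 5), variance model, library weights, fitted samples and replicate block, and left out libraries or added Cyp11b1 as a covariate. Coordinates are from GENCODE M21 (GRCm38) and promoter bases from RefSeq (GRCm38.p6).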

Additional observations from a re-analysis of the deposited data

Results flagged for a closer look

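Of the 19 collagen genes that entered no test, 4 reached 1 FPKM in at least 1 library and lay above every control library there. The highest value of each was in an STZ+AOS library. Col13a1, a transmembrane collagen, read 3.27 FPKM in STZ+AOS 3 and 1.12 in STZ+AOS 1, but 0.28 in STZ+AOS 2, with a highest control value of 0.45. Col7a1, the collagen of anchoring fibrils, read 1.17 FPKM in STZ+AOS 2 against a control maximum of 0.84. Col11a2, a minor fibrillar chain best known from cartilage, read 1.0 FPKM in STZ+AOS 1 against 0.66. Col23a1, another transmembrane collagen, read 1.2 FPKM in STZ+AOS 2 and 1.0 in STZ+control-FMT 3 against 0.83. Col7a1 and Col11a2 reached 1 FPKM in 1 library and Col13a1 and Col23a1 in 2, and no difference was tested.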

How the results depend on the processing

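FPKM without read totals, 3 libraries a group and libraries that stand apart limit every count here. For STZ+AOS against STZ, 1 collagen passed as reported. The count was 0 under quantile normalization, a mean of at least 5 FPKM, library weights or a fit of only the groups compared. It was also 0 with control 3 and STZ 1 left out or with Cyp11b1 as a covariate. No count is given without the libraries above 100 FPKM of Cyp11b1, as STZ+AOS 2 is then the only STZ+AOS library. It was 2 under median-of-ratios rescaling, 3 with no filter and 4 with a pseudocount of 5. Leaving out 1 library gave 0 to 6 (6 without control 3 or STZ 3, 5 without STZ+AOS 3 and 3 without STZ+AOS 2). For STZ+AOS against AOS, 15 became 8 under quantile normalization, 6 at a mean of at least 5 FPKM and 0 with the Cyp11b1 covariate, with 8 to 18 on leaving out 1 library (8 without AOS 2, 9 without STZ+AOS 1). At a mean of at least 5 FPKM only 6 of those 15 genes were still tested, and all 6 passed (Col1a2, Col4a1, Col4a2, Col6a1, Col6a6 and Col18a1). Col5a3, with a mean of 1.054 FPKM, was not tested under that filter in any comparison, so its call was not lost there. STZ against control went from 0 to 1 with control 3 and STZ 1 left out. STZ+AOS-FMT against STZ went from 0 to 1 with no filter (Col22a1) and with the Cyp11b1 libraries left out, and STZ+control-FMT against STZ to 1 with no filter. The interaction went from 0 to between 0 and 8 on leaving out 1 library. For any difference among the 6 groups, 1 became 0 under quantile normalization, a mean of at least 5 FPKM, a pseudocount of 0.1 or the covariate. It became 2 with no filter, 10 with control 3 and STZ 1 left out and 18 with library weights. Leaving out 1 library gave 0 to 9 (9 without control 3, 3 without STZ 1 or STZ 3). The share of all genes past the threshold in each of these fits is not given, so a changed count is no result about collagens in particular. Except for fewer genes tested or fewer samples, the cause was not tested.

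With the Cyp11b1 covariate, Col6a6 turned to 0.372 against AOS and 0.327 against STZ, Col19a1 to 0.145 against STZ, Timp3 to 0.066 and Ddr1 to -0.006. Cyp11b1 was high mainly in STZ+AOS, so its part and that of the group cannot be told apart in this fit. Col4a5 in STZ+AOS-FMT against STZ turned to -0.023 without STZ 1, alone or with control 3, and was at most 0.253 (without STZ 3).

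Same-numbered libraries correlated between -0.258 and 0.667 in their deviations from the group means, with 15 of 45 pairs over 0.1. Different-numbered libraries also reached 0.586 (control 2 with STZ 1) and -0.721 (control 3 with STZ 1). These values show no consistent pairing by replicate number, and the labels do not settle whether samples were paired. With a replicate block, 3 collagens passed in STZ+AOS against STZ (Col4a1, Col4a2 and Col5a3) and 15 against AOS.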
